A study of Picea abies with 24 samples.

Results

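The 100 array features that lay lowest in the asCCR line A78:3 relative to the transformed control line G88:5 were followed through the rest of a two-colour microarray series on embryogenic cultures of Norway spruce (Picea abies). They make up 3.72% of the array's features, each of which was printed as 2 of 5376 spots. A feature was chosen by its log2 ratio of A78:3 over G88:5 in each of 2 replicates. The 100 features whose larger, that is less negative, replicate ratio was lowest became the members. Their low values in that pairing are therefore the choice itself and not a finding. The question was what the same features did in the arrays of the other 5 pairings of lines.

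The lines A78:3, A78:4 and A78:5 are described in the labels as asCCR lines. The controls were G88:5 and G88:9, both transformed, and the untransformed line written 95:88:22 in the sample titles and with a different middle part in the series description. The title of the series says that a gene encoding CCR was down-regulated. All cultures were sampled on day 14 after subculture from 3 Petri dishes for each of 2 biological replicates. Each array set 1 asCCR extract against 1 control extract, and each pairing was hybridised with both dye orientations in both replicates, which gave 24 arrays in 2 loops, 1 per replicate. The labels do not give the construct's promoter or whether a line is 1 clone.

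CCR, cinnamoyl-CoA reductase, converts the CoA esters of hydroxycinnamic acids to aldehydes and so opens the branch of phenylpropanoid metabolism that supplies monolignols, the building blocks of lignin. In conifers lignin is built mainly from guaiacyl units and stiffens the walls of tracheids. Embryogenic cultures consist of early somatic embryos and proliferating cells with thin walls. The name field of the scanner files was empty and no annotation was used here, so the members carry no gene names, and neither CCR nor markers of the embryogenic tissue were analysed here. An F before its pair of spot numbers stands for a feature, and 4 members are named. A lower ratio in bulk RNA can come from fewer cells of a type or from less RNA per cell, and these cannot be told apart.

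The arrays were uneven in quality. The duplicate spots of an array had a Pearson r of 0.223 to 0.867 across features, which are not independent replicates, and the 3 arrays under 0.3 were 3 of the 4 that carried the replicate 1 extract of G88:9. One replicate 1 array of A78:4 over G88:5, with the asCCR line in Cy5, came with a copy of another array's scanner file. Its deposited ratios could not be set against intensities of its own. Per the file headers the arrays were quantified in 2 periods, which match 2 ranges of slide numbers. All 8 arrays of A78:3 fell in the first period and all 8 of 95:88:22 in the second, so that line and period cannot be told apart for these.

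In the pairing that chose them, the members had a median log2 ratio of A78:3 over G88:5 of -0.49 in replicate 1 (range -1.77 to -0.30) and of -0.49 in replicate 2 (range -2.21 to -0.29), against 0.01 in both replicates for all features. By construction 100 of 100 members were below 0 in both replicates, where 33% of all features were and 37.1% were above 0 in both. The last feature inside the rule had a value of -0.294 and the first outside it also had -0.294, so the list has no natural edge. The median member was 1.35-fold lower in A78:3 by its larger ratio, 34 members were below -0.5 in both replicates and 4 were below -1. The list reached lower than its mirror image reached high: the 100th feature by the same rule turned round stood at 0.22. Both spots of all 100 members were below 0 in both replicates, and 88 members were below 0 on each of the 4 arrays. The dye orientations gave unequal sizes. The members' median was -0.64 with A78:3 in Cy5 and -0.36 with A78:3 in Cy3 in replicate 1, and -0.83 and -0.23 in replicate 2, where the dye swaps had an r of -0.11 across all features.

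F2574_2686 had the lowest value of the rule. Its log2 ratios of A78:3 over G88:5 were -2.22 and -1.32 on the arrays of replicate 1 and -3.12 and -1.31 on those of replicate 2. F2538_2650 came next, with -1.61 and -1.05 in replicate 1 and -1.50 and -1.09 in replicate 2. In both features the ratio with A78:3 in Cy5 was the more negative one in each replicate. Neither was near the scanner's ceiling on any array.

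**Figure D1:**
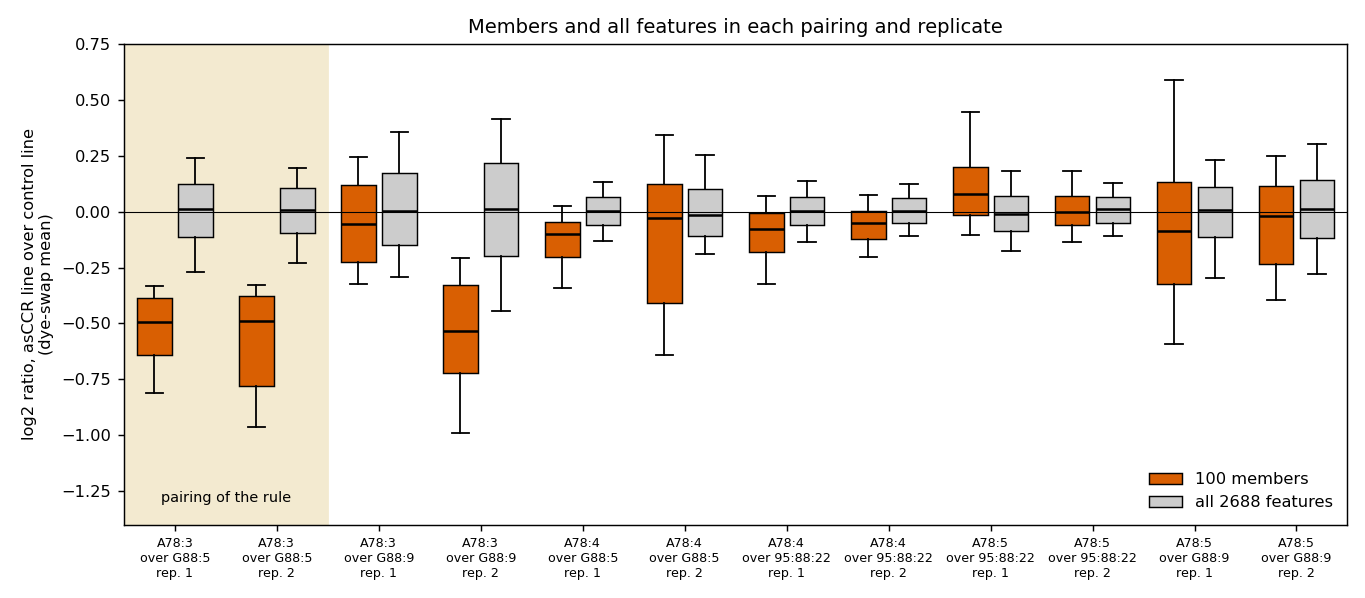
Box plots of the log2 ratio of the asCCR line over the control line, averaged over the dye swap, for the 100 members (orange) and all features (grey) in each pairing and replicate. Boxes span the quartiles with the median as a line, and whiskers the 10th to 90th percentile. The shaded pairing chose the members. Outside it, the members' median is lowest in A78:3 over G88:9 of replicate 2, at -0.53.

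The other arrays were fitted with limma over all features of the array. Dye swaps of the same 2 extracts were averaged to 1 value per replicate, the spread between the 2 replicates of a pairing was the error, pooled over the 5 pairings, and a feature was called where its Benjamini-Hochberg adjusted p was under 0.05. The labels do not say whether the replicates came from separately kept cultures, so the p-values measure the spread between these extracts. The fit took the averaged values as independent, although neighbouring pairings of a loop share an extract. The SEs, p-values and intervals do not allow for this sharing. No feature was called in any of the 5 pairings or in the 3 comparisons built from them, so percent called was 0 in each, and no member was called. Counts at an unadjusted p under 0.05 are therefore given beside the share of all features with such a p.

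The pairing of A78:3 with G88:9 shares the A78:3 extracts with the arrays that chose the members. Over both replicates the members' median log2 ratio of A78:3 over G88:9 was -0.29, against 0.02 for all features, and 92 of 100 members were below 0, against 44.9% of all features. At an unadjusted limma p under 0.05, 42 members were lower and 0 were higher, where 6.29% of all features were lower and 6.81% higher. The smallest adjusted p of a member was 0.122. The replicates differed. In replicate 2, 96 members were below 0, against 48.2% of all features, with a median of -0.53 (range -1.48 to 0.33), and 57 lay below -0.5, as did 8.15% of all features. The members' median there was -0.75 with A78:3 in Cy5 and -0.34 with A78:3 in Cy3. In replicate 1, 59 members were below 0, with a median of -0.05 (range -0.57 to 0.51), and 2 lay below -0.5, where 49.5% and 1.04% of all features did. In both replicates 55 members were below 0, against 19% of all features, and 0 members were above 0, against 21.4%. Both replicate 1 arrays had an r between duplicate spots under 0.3. The part of this in the difference between the replicates was not tested. Without A78:3 over G88:9 of replicate 1, where the remaining replicate is assumed to vary like the other pairings, limma called 306 features, and 41 members were called lower, against 5.77% of all features. Without replicate 2 it called 90 features, 9 lower and 81 higher, and 0 members, against 0.335% and 3.01% of all features.

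F2574_2686 had log2 ratios of A78:3 over G88:9 of -0.17 and -0.53 in replicate 1 and of -1.24 and -0.52 in replicate 2. All 4 arrays were below 0, but the mean of -0.61 (SE 0.35, limma adjusted p = 0.517) was less negative than any of its ratios of A78:3 over G88:5. F2538_2650 had 0.01 and 0.07 in replicate 1 and -0.20 and -0.64 in replicate 2, a mean of -0.19 (SE 0.26, limma adjusted p = 0.849). Its replicates lay on opposite sides of 0.

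The pairing of A78:4 with G88:5 shares the G88:5 extracts with the arrays that chose the members. The members' median log2 ratio of A78:4 over G88:5 was -0.08, against -0.002 for all features, and 71 members were below 0, against 50.7% of all features. At an unadjusted limma p under 0.05, 16 members were lower and 0 were higher, where 0.856% of all features were lower and 1.45% higher. In replicate 1, 86 members were below 0 within a narrow range, against 49% of all features. Their median was -0.10, with quartiles of -0.20 and -0.04. In replicate 2, 57 were below 0, near the 53.6% of all features, with a median of -0.03. The quartiles, however, were -0.41 and 0.12 and the range ran from -2.15 to 0.62. A group of 16 members lay below -0.5 there, as did 0.781% of all features, while 2 lay above 0.5, as did 1.75%. In both replicates 49 members were below 0, against 22.5% of all features, and 6 were above 0, against 19.9%. The 2 replicates of this pairing fell in different periods of quantification, replicate 1 in the second and replicate 2 in the first. Without the array that had no scanner file of its own, the members' median was -0.05, with 68 members below 0 and 14 lower at an unadjusted p under 0.05.

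The 2 named features were far down in this pairing. F2574_2686 had log2 ratios of A78:4 over G88:5 of -0.61 and -0.20 in replicate 1 and of -2.53 and -1.76 in replicate 2, a mean of -1.28 (SE 0.35, limma adjusted p = 0.999). F2538_2650 had -0.20 and -0.32 in replicate 1 and -1.45 and -1.68 in replicate 2, a mean of -0.91 (SE 0.26, limma adjusted p = 0.999). Their replicate 2 ratios against G88:5 were thus low with A78:4 as well as with A78:3, and both pairings hold the same replicate 2 extract of G88:5.

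**Figure D2:**
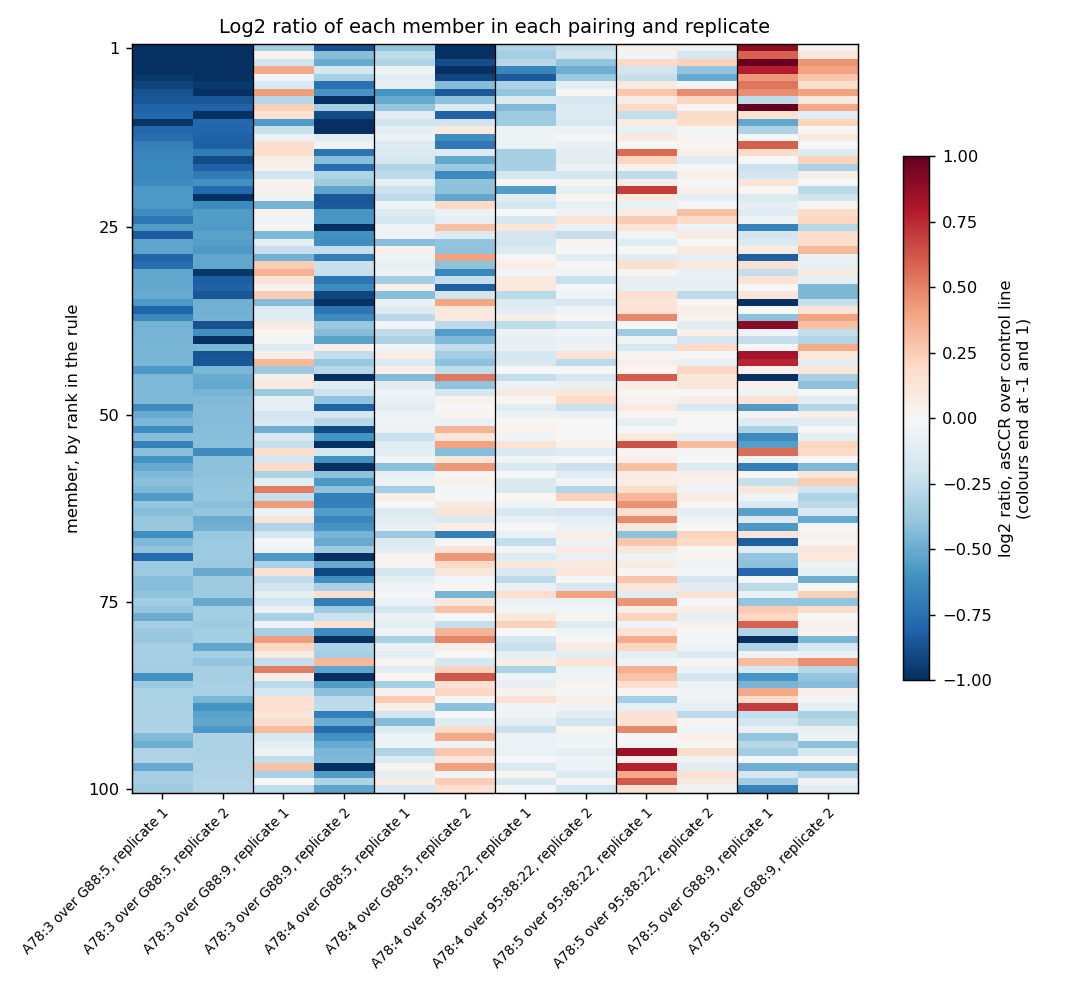
Log2 ratio of the asCCR line over the control line for each of the 100 members (rows, by rank in the rule) in each pairing and replicate (columns). Blue is lower in the asCCR line and red is higher. The pair of columns at the left chose the members. Members at the top are also blue in A78:4 over G88:5 of replicate 2, and the column of A78:3 over G88:9 of replicate 2 is blue for 96 of 100 members.

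Because the pairings form a closed loop, A78:3 can also be set against G88:5 without any array of the rule, by adding the ratios of the other 5 pairings. This uses the same extracts on other slides. In replicate 2 the indirect log2 ratio of A78:3 over G88:5 had a median of -0.49 over the members, beside a direct median of -0.49, and 94 members were below 0 indirectly, against 48.3% of all features. The direct ratio minus the indirect one had quartiles of -0.19 and 0.11 over the members, and for 92 of 100 members the ratios were within 0.5 of each other, as they were for 95.9% of all features. In replicate 1 the indirect median was 0.07 beside a direct median of -0.49, and 43 members were below 0, against 50.3% of all features. There the direct minus the indirect ratio had quartiles of -1.05 and -0.26, and 39 members were within 0.5, as were 69.5% of all features. The members' direct and indirect medians were thus alike in replicate 2, and apart in replicate 1. Over all features the difference had an SD of 0.232 in replicate 2 and of 0.538 in replicate 1. Over both replicates the members' indirect median was -0.28, and 70 members were below 0, against 50.4% of all features. At an unadjusted limma p under 0.05, 6 members were lower and 0 higher, against 0.707% and 1.26% of all features, and the median half-width of the 95% interval was 0.75. In both replicates 42 members were below 0 indirectly, against 23.3% of all features, and 5 were above 0, against 24.6%.

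**Figure D3:**
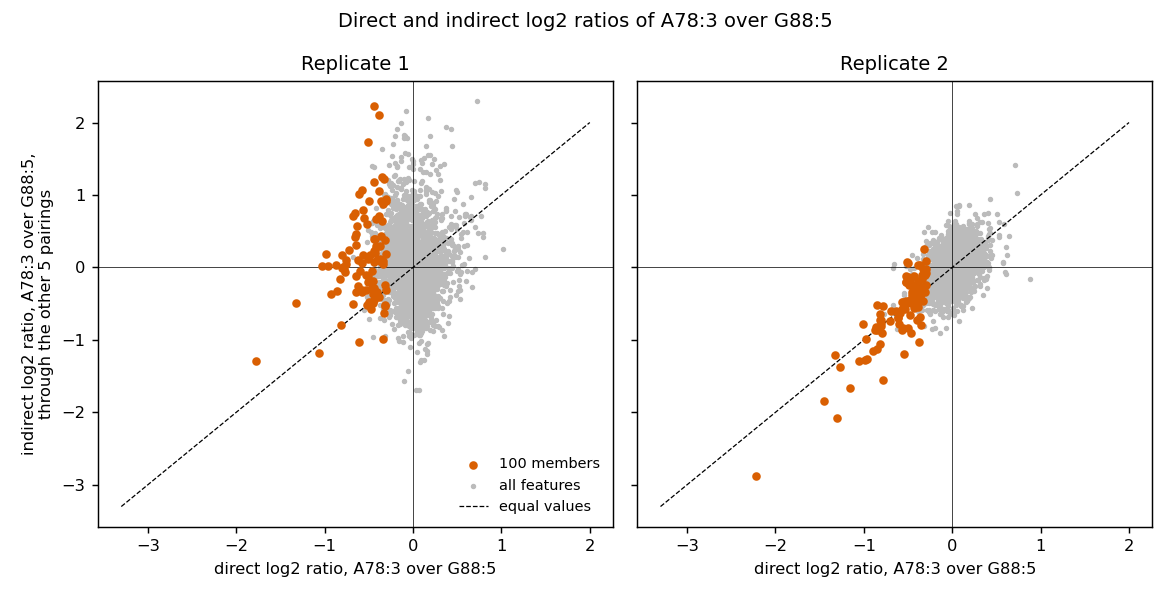
Direct log2 ratio of A78:3 over G88:5 (x axis) and the indirect one through the other 5 pairings (y axis) in each replicate, for the 100 members (orange) and all features (grey). The dashed line marks equal values. In replicate 2 the members lie along that line, and in replicate 1 they spread across 0 on the y axis with a median of 0.07.

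The same chain gave a log2 level of each line, centred over the 6 lines, again without the arrays of the rule. The level of A78:3 also rests on A78:3 over G88:9 as its only pairing. In replicate 2, A78:3 had a median level of -0.40 over the members, and 98 of 100 members were below the mean of the lines, against 48.8% of all features. The medians of the other 5 lines lay from 0.03 in A78:4 to 0.13 in G88:9. A78:3 was the lowest of the 6 lines for 89 members in replicate 2, against 26.3% of all features. In replicate 1 it was lowest for 24 members, against 35.3% of all features, with a median level of 0.009. A78:4 had the lowest median there, -0.13, and was lowest for 47 members, against 15% of all features. A78:3 was lowest in both replicates for 20 members, against 5.84% of all features. The highest line in both replicates was G88:9 for 15 members and G88:5 for 12, against 3.76% and 4.02% of all features.

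A78:3 over the mean of A78:4 and A78:5 had a median of -0.19 over the members, with -0.46 in replicate 2 and 0.08 in replicate 1. At an unadjusted limma p under 0.05, 13 members were lower and 0 higher, against 2.68% and 2.31% of all features. The median interval half-width was 0.53. G88:5 over the mean of the other control lines had a median of -0.02, with quartiles of -0.23 and 0.24, and 56 members were below 0, against 46% of all features. In that comparison 1 member was lower and 2 were higher at an unadjusted p under 0.05, against 0.67% and 0.409% of all features. As a list the members were thus not on one side in G88:5, though they differed along the value of the rule, as given below. F2574_2686 and F2538_2650 stood high in G88:5 in replicate 2, with levels of 1.82 and 1.37, while the other 5 lines lay between -1.06 and -0.09 for F2574_2686 and between -0.70 and -0.01 for F2538_2650. In replicate 1 their levels in G88:5 were 0.47 and 0.19, beside 0.36 and 0.27 in 95:88:22 and 0.41 and 0.25 in the asCCR line A78:5.

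**Figure D4:**
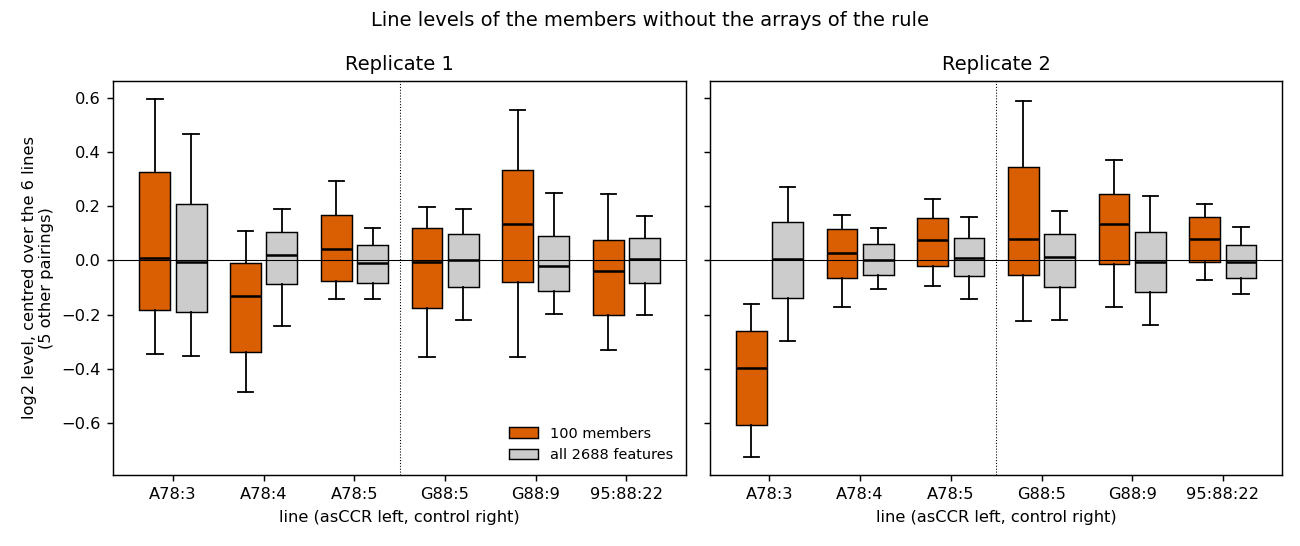
Log2 level of each line, centred over the 6 lines and computed from the 5 pairings that did not choose the members, for the 100 members (orange) and all features (grey) in each replicate. Boxes span the quartiles with the median as a line, and whiskers the 10th to 90th percentile. The members of A78:3 lie low in replicate 2, with a median of -0.40, and around 0 in replicate 1.

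The remaining 3 pairings share no extract with the arrays of the rule. In A78:4 over 95:88:22 the members leaned low. Their median log2 ratio was -0.08 in replicate 1 and -0.05 in replicate 2, against 0.002 and 0.005 for all features. Below 0 were 78 and 74 members, against 49.2% and 47.4% of all features. In both replicates 62 members were below 0, against 29.2% of all features, and 10 were above 0, against 32.6%. The dye swaps had an r of -0.20 in replicate 1 and -0.26 in replicate 2 across all features. Members' medians with A78:4 in Cy5 and in Cy3 were -0.12 and -0.07 in replicate 1 and -0.10 and -0.03 in replicate 2. In each replicate 45 members were below 0 on both arrays, against 21.4% and 21.2% of all features. The sizes were small beside the error. The members' median over both replicates was -0.07, where the median half-width of the 95% interval was 0.34, and at an unadjusted limma p under 0.05, 1 member was lower and 0 were higher, against 0.223% and 0.372% of all features. F2574_2686 was below 0 on all 4 arrays, with -0.53 and -0.07 in replicate 1 and -0.24 and -0.23 in replicate 2. F2538_2650 was too, with -0.42 and -0.26 in replicate 1 and -0.09 and -0.28 in replicate 2. Their limma adjusted p was 1 in each case.

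In A78:5 over 95:88:22 the members did not lean low. Over both replicates their median was 0.04, and 29 members were below 0, against 51.2% of all features. Their median log2 ratio was 0.08 in replicate 1, where 26 members were below 0, and -0.001 in replicate 2, where 52 were. Of all features, 53.4% and 45.3% were below 0. In both replicates 36 members were above 0, against 23.4% of all features, and 14 were below 0, against 22.1%. At an unadjusted limma p under 0.05, 3 members were higher and 0 lower, against 0.67% and 0.298% of all features. The dye swaps of replicate 2 disagreed, with an r of -0.64 across all features and members' medians of -0.15 with A78:5 in Cy5 and 0.10 with A78:5 in Cy3.

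In A78:5 over G88:9 the members went both ways. Their median log2 ratio was -0.08 in replicate 1 and -0.02 in replicate 2, and in replicate 1 the range ran from -1.76 to 1.27, with 16 members below -0.5 and 13 above 0.5, against 4.24% and 1.38% of all features. In both replicates 40 members were below 0 and 24 above 0, against 26.8% and 32.6% of all features. At an unadjusted limma p under 0.05, 12 members were lower and 8 higher, against 6.25% and 3.76%. The members with the smallest p among higher values in these 3 pairings were both found here. F2018_2130, at rank 3 of the rule, had log2 ratios of A78:5 over G88:9 of 1.09 and 1.2 in replicate 1 and of 0.24 and 0.64 in replicate 2, a mean of 0.79 (SE 0.18, limma adjusted p = 0.468). All 4 arrays were above 0, and those of replicate 1 were higher than those of replicate 2. F4270_4382, at rank 9 of the rule, had 1.48 and 1.06 in replicate 1 and 0.59 and 0.18 in replicate 2, a mean of 0.83 (SE 0.21, limma adjusted p = 0.468). Replicate 1 of this pairing also holds that extract of G88:9, with an r between duplicate spots of 0.738 and 0.223 on its arrays. The level of G88:9 was the lowest of the 6 lines in replicate 1 for F4270_4382, at -0.71. The replicates of this pairing also fell in different periods of quantification, replicate 1 in the first and replicate 2 in the second.

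**Figure D5:**
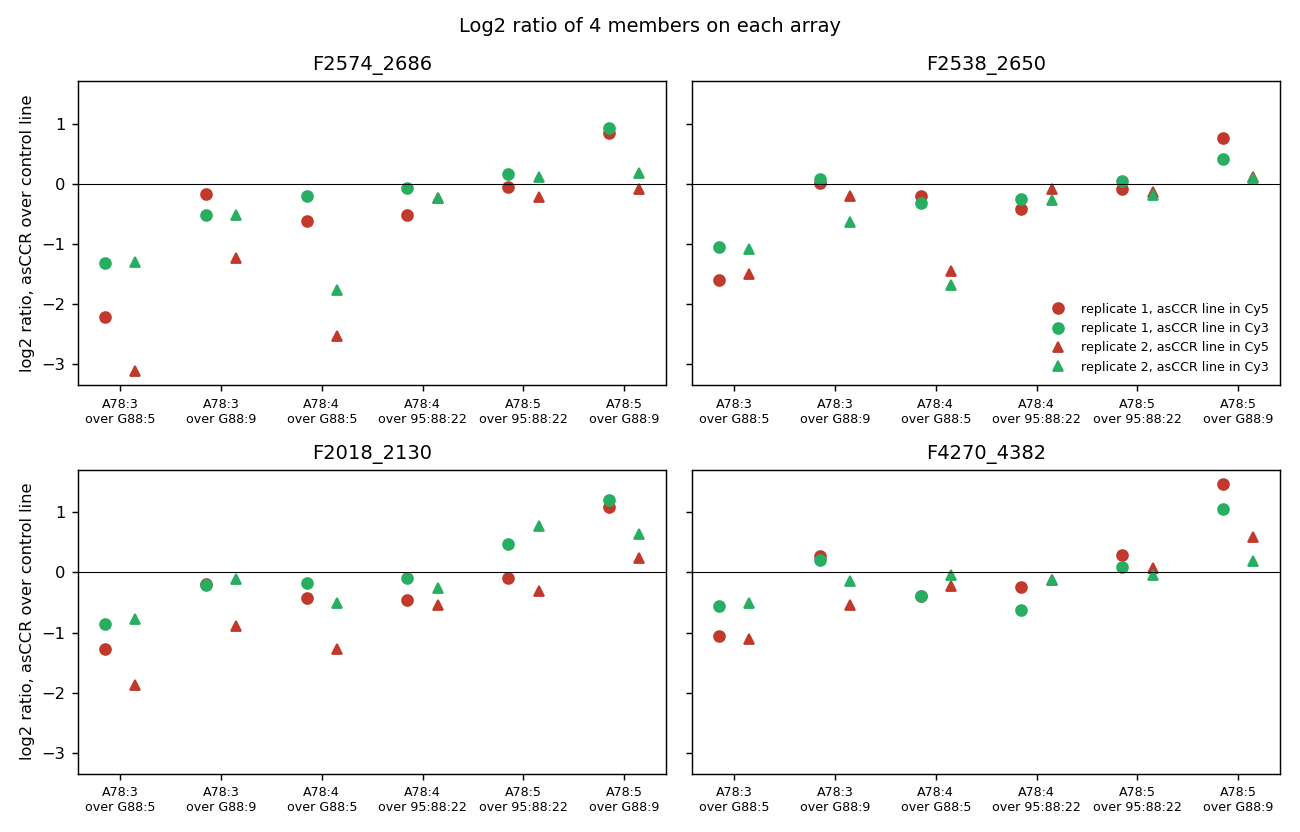
Log2 ratio of the asCCR line over the control line on each of the 24 arrays for 4 members. Circles are replicate 1 and triangles replicate 2, red with the asCCR line in Cy5 and green with it in Cy3. F2574_2686 and F2538_2650 lie at -1.45 or lower in A78:4 over G88:5 of replicate 2, and F2018_2130 and F4270_4382 lie above 0 on all 4 arrays of A78:5 over G88:9.

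The members differed among themselves along the value of the rule. The 34 members below -0.5 in both replicates of A78:3 over G88:5 had a median log2 ratio of A78:4 over G88:5 of -0.41 in replicate 2, with 30 below 0, while the other 66 had 0.05, with 27 below 0. In replicate 1 the medians lay closer, at -0.14 for the 34 and -0.09 for the 66, with 32 and 54 below 0. Of all features, 53.6% were below 0 in replicate 2 and 49% in replicate 1. In A78:4 over 95:88:22, which shares no extract with the rule, the medians were -0.15 for the 34 members and -0.05 for the 66. There 30 and 51 members were below 0, against 47.4% of all features. In A78:3 over G88:9 the 34 and the 66 had medians of -0.30 and -0.29. For G88:5 over the mean of the other control lines the 34 had a median of 0.24, with 9 below 0. The 66 had a median of -0.10 there, with 47 below 0, and 46% of all features were below 0. That comparison includes A78:4 over G88:5. The split is made on the values that chose the members, whose arrays share the G88:5 extracts with A78:4 over G88:5 and the A78:3 extracts with A78:3 over G88:9, so it is a description without a test.

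The members were not the dimmest spots. By mean log2 intensity over the 23 arrays with a scanner file of their own, 6 members were in the dimmest 25% of all features, 40 and 34 in the 25% ranges above it and 20 in the brightest. Of the members 1, and of all features 81, came near the scanner's ceiling on any array. The members came from all 24 pairs of print blocks, with 1 to 7 in each. Within blocks they were less even, with 20 in the first row and 20 in the third, and 8 to 14 in each of the others. Their error was larger than usual, with a median SE of 0.147 in a single pairing, against 0.113 over all features.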

How the data were processed

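Each array compared 2 RNA extracts, and 12 extracts of 6 lines were hybridised. The deposited values are log2 ratios. Per the labels, the authors made them with the LCB Data Warehouse (version 1.2.10), using a print-tip loess per slide. Per the file headers, the QuantArray files hold spot intensity values without background subtraction. For 23 arrays the deposited ratios differed by at most 0.00337 from log2 Cy5 over Cy3 recomputed with print-tip loess from each array's own intensities, which settles scale and direction. The remaining array had an r of -0.0127 with its file, which duplicates another array's. Column medians lay between -0.00358 and 0.0193. Spots n and n + 112 were averaged to 2688 features, ratios were turned to asCCR over control and dye swaps averaged. The 10 values of the 5 other pairings were fitted with limma 3.58.1 (R 4.3.3) with 5 residual degrees of freedom, and each comparison was a contrast of pairing means. The fit was tested on simulated data with independent noise in each pairing and replicate. That setting holds no shared extracts, so it does not show how the fit behaves with them. The deposited ratios served throughout because the rule is set on them. The number of arrays limits the precision.

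Named were the 2 members lowest by the rule and the 2 with a positive ratio and the smallest limma p in the 3 pairings without an extract of the rule. The members, lists and tests were chosen with earlier results of these data known. Alternatives covered the scanner intensities with normexp (offset 50), scaling, the array without its own file, single spots, dim features, the variance model, replicate and slide range as blocks, and leaving out replicates. One was added after seeing the data.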

Additional observations from a re-analysis of the deposited data

Results flagged for a closer look

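The members' median and the 4 named members were examined in the 4 arrays of each pairing, 30 groups in all, and in 2 groups the gap of 1 array to the other 3, over the range of the 4, passed the 95% critical value of Dixon's test. By that level chance marks about 1 in 20 groups. F2018_2130 had a log2 ratio of -0.897 in A78:3 over G88:9 of replicate 2 with the asCCR line in Cy5, while the other 3 arrays lay between -0.207 and -0.114. The members' median was -0.149 in A78:5 over 95:88:22 of replicate 2 with the asCCR line in Cy5, while the other 3 lay between 0.0542 and 0.0952.

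F2018_2130 was below 0 on all 4 arrays of A78:3 over G88:9 and above 0 on all 4 arrays of A78:5 over G88:9, and the means differed by -1.15 on the log2 scale. Selection favoured both ends of this difference. The feature is a member for its low ratio with the same A78:3 extracts. It was named for its small limma p among positive ratios, found in A78:5 over G88:9. The difference was not tested.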

How the results depend on the processing

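Each of the 8 comparisons was recomputed under 20 alternatives. The number of called features stayed at 0 except when replicates were left out. With single replicates left out it ran from 0 to 306 for A78:3 over G88:9, from 0 to 101 for A78:3 over the mean of A78:4 and A78:5, from 0 to 4 for A78:5 over 95:88:22, and from 0 to 1 for A78:4 over G88:5, A78:5 over G88:9 and G88:5 over the mean of the other control lines. The 101 came without A78:3 over G88:9 of replicate 2, 29 lower and 72 higher, and 1 member was among the lower ones, against 1.08% of all features. With both pairings of the replicate 1 extract of G88:9 left out, an alternative chosen after seeing the data, 577 were called for A78:3 over G88:9, with 58 members lower, against 10.6% of all features. The cause was not tested.

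The members' medians moved by more than the SD between the 2 replicate medians in a few cases. That SD grows with the difference between the replicates, so where they differ, leaving a replicate out seldom passes it. A78:4 over 95:88:22 was -0.104 from the scanner intensities with normexp and -0.0976 with arrays scaled. G88:5 over the mean of the other control lines was -0.0609 with normexp and -0.0985 to -0.00195 with single replicates left out. A78:5 over G88:9 was -0.0216 with both replicate 1 pairings of G88:9 left out, and -0.0843 to -0.0216 with single replicates left out. By the titles, neighbouring pairings of a loop share an extract of the same replicate number. The labels do not otherwise pair the replicate numbers of different lines. The deviations between replicates had an r from -0.45 to 0.542 over the 10 pairs of pairings, above 0.1 in 4. With the replicate block the members' median for A78:3 over G88:9 was -0.29, 39 members were lower at an unadjusted p under 0.05, and no call changed. With the slide range as a block 25 members were lower at that p, and 261 of all features had it in either direction. The median of A78:3 over the mean of A78:4 and A78:5 ran from -0.398 to 0.00273 with single replicates left out. That of A78:3 over G88:9 ran from -0.532 to -0.0537. For A78:3 over G88:5 through the other 5 pairings it ran from -0.431 to -0.0578. Though wide, none of these ranges held a shift beyond that SD. Of the 100 members, 85 were kept with normexp values, 85 by the mean of the 2 replicate ratios, 79 on first spots only and 81 on second spots only.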
